A study of Sus scrofa with 24 samples.

Results

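The levels of 10 genes of the early response to stimuli were followed across all groups of the study. They are EGR1, EGR2 and EGR3, IER2, IER3 and IER5, KLF2, KLF4 and KLF6, and MYC. The members were the rows of the gene count table whose pig Ensembl identifier carries 1 of these symbols. All 10 symbols were found, among 25880 pig genes of which 14857 carry a symbol. All 10 passed the filter on low counts, which left 14172 genes for testing.

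The study measured RNA by paired-end sequencing in bronchial epithelial cells of wild-type pigs aged 1 month. The cells were grown on porous membranes and then with their upper face exposed to air (air-liquid interface culture). Flagellin, the bacterial flagellum protein that TLR5 recognises, was used at 100 ng/ml after 1 h with either 20 µM SB203580 or its solvent DMSO. SB203580 is an inhibitor of the stress-activated p38 MAP kinases.

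There were 6 groups of 4 libraries. At 2 h they were DMSO then PBS (the PBS group), DMSO then flagellin (the flagellin group) and SB203580 then flagellin, and the same 3 treatments were repeated at 24 h. No group had SB203580 without flagellin, so a difference between the inhibitor group and the PBS group combines both agents. The labels do not say whether the 4 replicates of a group came from separate animals or cultures, so p-values cover only the spread among these libraries, and part of that spread may be technical.

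Immediate early genes are transcribed within minutes of a stimulus without new protein synthesis, mostly through MAP kinases, serum response factor and, for some, NF-kappaB. Their messenger RNAs are short-lived, so that levels usually pass through an early peak. EGR and KLF proteins are zinc-finger transcription factors that bind GC-rich promoter elements. MYC drives growth genes, and the IER genes encode small proteins that act on transcription, stress responses and cell survival.

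Deposited libraries held 26345945 to 36267289 counts on pig genes, and 3 counts, the limit that a count of 0 allows, correspond to 0.0827 to 0.114 CPM, the unit of level used here (counts scaled to the size of the library). This limit covers counting error only. Epithelial markers were high in every library, with EPCAM at 243 to 401 CPM and CDH1 at 1180 to 2186 CPM. Of the 8 leukocyte markers, CD3E was at 0 in every library and PTPRC at most at 0.113 CPM, while CD14, CD68 and LYZ, which are not limited to leukocytes, had medians of 17.4, 13.4 and 5.28 CPM. Of the 5 matched endothelial markers, CDH5 (at most 0.0558 CPM) and EMCN (at most 0.0687 CPM) were near 0, while KDR had a median of 202 CPM and PECAM1 of 3.38 CPM. The club and secretory markers were uneven, with medians of 607 CPM for WFDC2, 262 for PIGR and 55.9 for SCGB3A1 but 0.502 for SCGB1A1. The ciliated cell regulator FOXJ1 had a median of 6.49 CPM. CXCL8, a chemokine gene used as a check of the flagellin response, rose from 33.4 ± 18.4 CPM in the PBS group to 655 ± 67.8 CPM in the flagellin group at 2 h (SD, n = 4; log2 fold change 4.30, edgeR adjusted p = 0.00943). TLR5 was low, at 0.785 ± 0.275 and 0.931 ± 0.182 CPM in these groups (SD, n = 4).

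Libraries with replicate numbers 1 and 2 stood apart from those numbered 3 and 4 in every group. The Y-linked genes EIF1AY and KDM5D were detected in numbers 1 and 2, with a summed level of 22.7 to 36.6 CPM, and reached at most 0.0284 CPM in numbers 3 and 4. Every difference between the sets is thus also one between libraries with and without Y-linked RNA, and sex cannot be told apart from the set. Over 5 matched squamous epithelial markers (KRT10, KRT4, IVL, TGM1 and CNFN, none at 0), the mean log2 CPM was 7.48 ± 0.76 in numbers 1 and 2 and 5.76 ± 0.25 in numbers 3 and 4 (SD, n = 12). For the 8 club and secretory markers it was 5.55 ± 0.93 and 3.51 ± 0.51 (SD, n = 12), and 5 of the libraries of numbers 1 and 2 were low in them. The labels name no batch. Each comparison below was therefore also fitted with a term for the set of replicate numbers at each time, which is called the set term fit, and within each set alone. Within a set each group holds 2 libraries, and the labels do not say whether these came from separate animals. The p-values of the set term fit and of each set alone leave out the spread between the sets. The spread within a set may be technical. The sets were known from earlier results of these data, and the 5 low libraries were picked after their values were seen.

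Per kilobase of exon length, IER3 was the most abundant member and EGR3 the least. The medians over the 24 libraries were 138 CPM per kb for IER3, 114 for KLF6, 82.3 for KLF4, 51.0 for IER2, 25.1 for IER5, 19.8 for EGR1 and 18.7 for MYC. KLF2 followed at 1.44, EGR2 at 0.238 and EGR3 at 0.157 CPM per kb. The range of each of the first 7 genes overlapped that of its neighbour in this order, and so did EGR2 and EGR3. The ranges of MYC (9.28 to 32.2 CPM per kb) and KLF2 (0.825 to 3.73) did not overlap, nor did those of KLF2 and EGR2 (0.0212 to 0.493). The exon lengths of IER2 and KLF6 in the table are short, 666 and 849 bases, and the level per kilobase depends on that annotation.

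**Figure D1:**
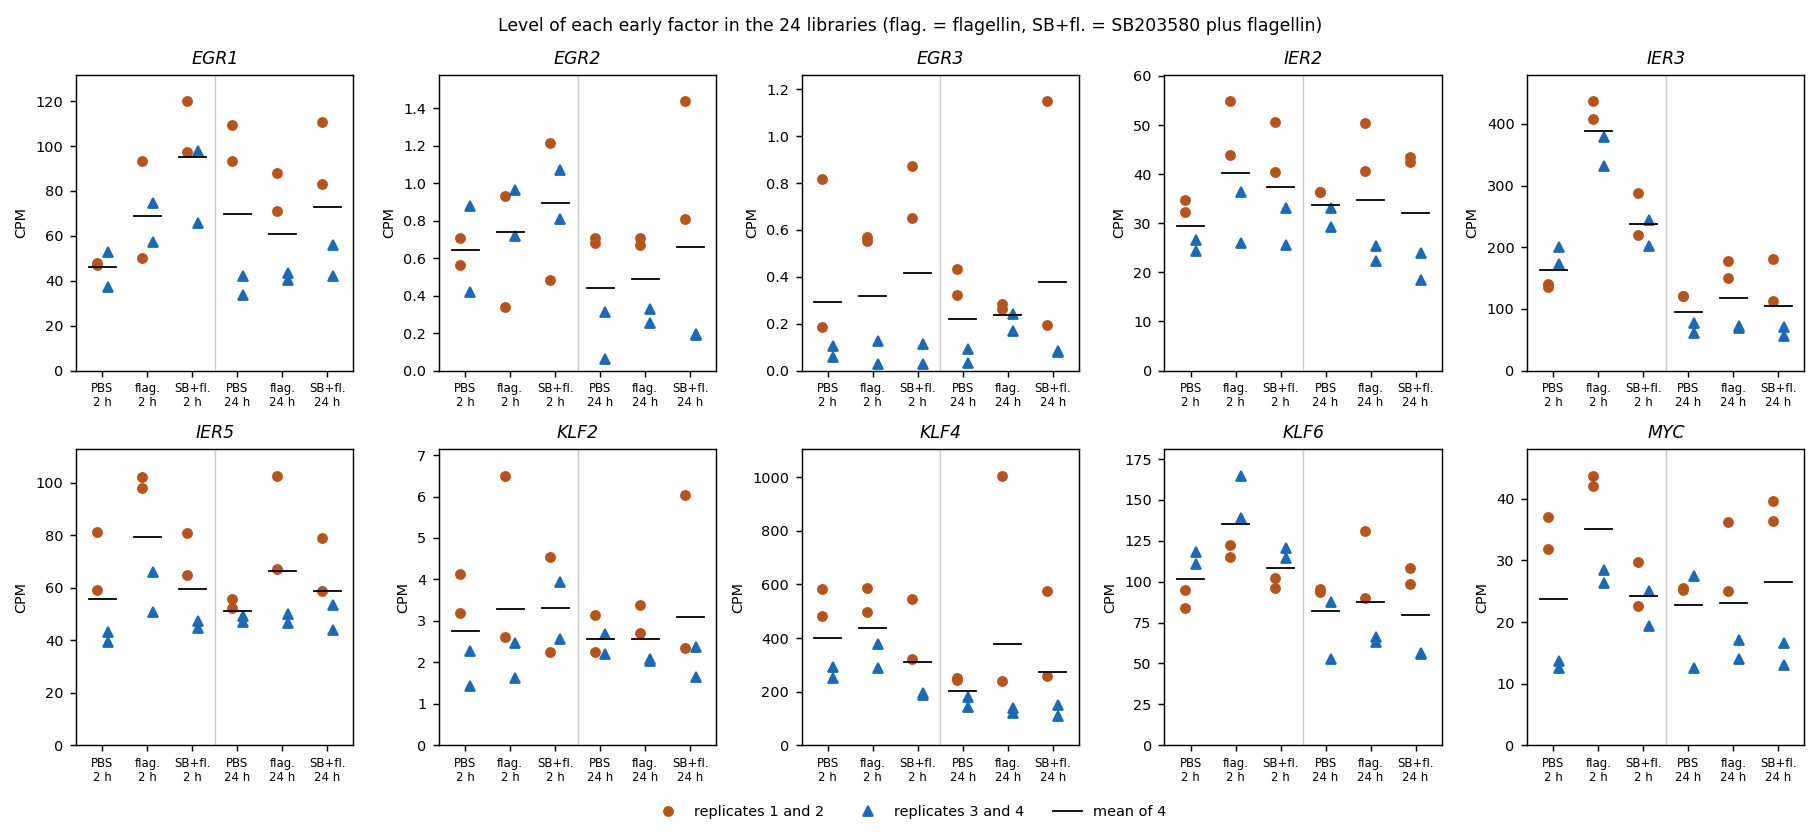
Level of each of the 10 genes in CPM (linear axis from 0) in the 24 libraries, by treatment and time; circles are replicates 1 and 2, triangles replicates 3 and 4, and bars the mean of 4. IER3 at 2 h is higher with flagellin (331 to 436 CPM) than with PBS (136 to 201 CPM), and at 24 h the replicate sets do not overlap for 6 of the 10 genes, where 17.1% of all tested genes are lower in replicates 3 and 4 without overlap.

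The log2 fold changes of flagellin against PBS at 2 h were above 0 for all 10 genes, from 0.13 for KLF4 to 1.26 for IER3, and none passed the test in the fit without a block. The median of the 10 log2 fold changes was 0.43, against -0.003 over all 14172 genes. In that fit 0 of 10 members were called at an adjusted p under 0.05 (edgeR quasi-likelihood test, Benjamini-Hochberg), where 0.325% of all tested genes were called. At an unadjusted p under 0.05 there was 1 member, IER3, beside 5.09% of all genes. Only for IER3 did the 2 groups not overlap, and 2.42% of all tested genes were higher without overlap.

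IER3 (ENSSSCG00000027607, chromosome 7, 23265564 to 23266827, minus strand, coordinates as in the deposited table) encodes a stress-inducible protein that modulates cell survival and is a known NF-kappaB target. Its level at 2 h was 140, 136, 201 and 173 CPM in replicates 1 to 4 of the PBS group. In the flagellin group it was 436, 408, 379 and 331 CPM. With SB203580 before flagellin it was 220, 288, 202 and 244 CPM. Every flagellin library lay above every PBS library, and every inhibitor library lay between the highest PBS value and the lowest flagellin value.

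The log2 fold change of IER3 with flagellin at 2 h was 1.26 (SE 0.33, higher in 4 of 4 replicates). Its edgeR adjusted p was 0.181 without a block and 0.0378 with the replicate number as a block, where the log2 fold change was 1.20 and 1.07% of genes were called. In the set term fit the adjusted p was 7.55e-05 at a log2 fold change of 1.26 (SE 0.16), with 2.24% of genes called. It was 0.0219 with only the 2 groups compared in the fit, and 0.0291 with DESeq2. When each library of these groups was left out of the fit without a block, it was 0.26 to 0.476, and IER3 was never called. Within replicates 1 and 2 alone, with 2 libraries per group, the log2 fold change was 1.61 (edgeR adjusted p = 0.0323), and within replicates 3 and 4 alone 0.94 (adjusted p = 0.00519).

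For IER3 the inhibitor group lay below the flagellin group at 2 h in 4 of 4 replicates, with a log2 fold change of -0.70 (SE 0.33, 95% interval -1.40 to -0.01). This difference did not pass the test over all genes without a block (edgeR adjusted p = 1.00), with the replicate block (0.911) or in the set term fit (0.0573). Set term fitting without the 5 libraries low in club and secretory markers gave -0.65 (adjusted p = 0.0241), where 286 genes were called. The groups did not overlap for 1 member, IER3, and 1.35% of tested genes were lower without overlap. Against PBS, the inhibitor group was at 0.55 (SE 0.33) for IER3, again higher in 4 of 4 replicates without overlap. Whether SB203580 alone acts on IER3 in the absence of flagellin was not measured.

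In bulk RNA, fewer expressing cells and less RNA per cell cannot be told apart, which applies to every difference given here.

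EGR1 (ENSSSCG00000014336, chromosome 2, 140441491 to 140471827, plus strand) encodes the founding member of the EGR family and is a classic target of ERK signalling through serum response factor. It ordered the groups differently from IER3. At 2 h its level was 47.1, 47.9, 53.0 and 37.1 CPM with PBS. With flagellin it was 50.3, 93.3, 74.8 and 57.3 CPM. With SB203580 plus flagellin it was 97.5, 120, 97.9 and 65.9 CPM. Each inhibitor library was above every PBS library and above the flagellin library of the same number, although the inhibitor and flagellin groups overlapped.

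The log2 fold change of EGR1 was 0.58 (SE 0.35) for flagellin against PBS and 0.47 (SE 0.35) for inhibitor plus flagellin against flagellin. For inhibitor plus flagellin against PBS it was 1.04 (SE 0.36, higher in 4 of 4 replicates). In this last comparison 0 of 10 members were called without a block, beside 0.183% of all genes, and the EGR1 adjusted p was 0.589 (edgeR). It was 0.0952 with the replicate block and 0.00613 in the set term fit (log2 fold change 1.03, SE 0.19), where EGR1 was the only member called and 1.98% of genes were called. The groups did not overlap for 2 members, EGR1 and IER3, where 2.11% of genes were higher without overlap.

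**Figure D2:**
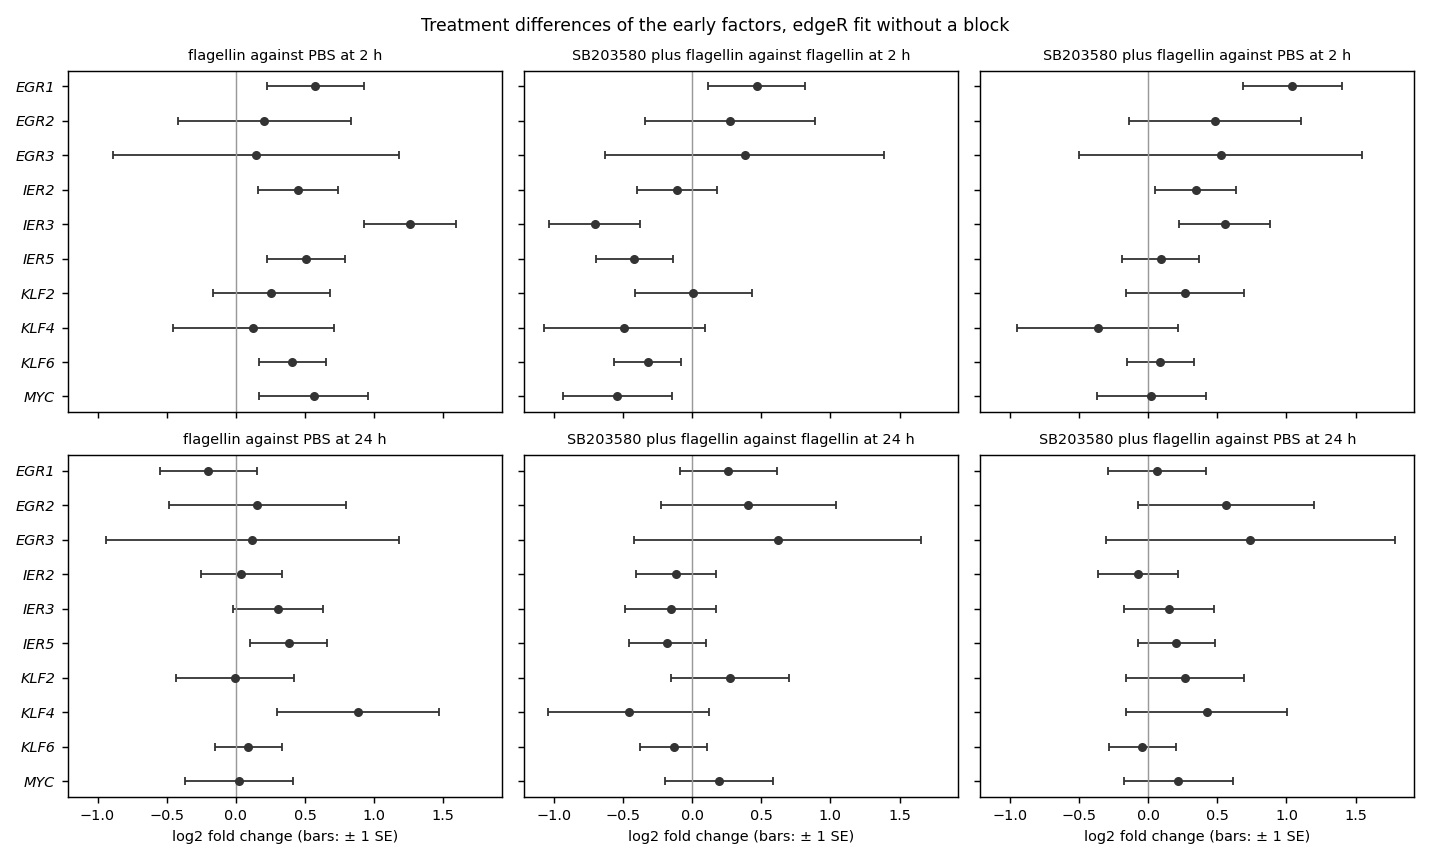
Log2 fold change of each gene (point) with its standard error (bar, ± 1 SE) in the 6 treatment comparisons at 2 h (top row) and 24 h (bottom row), from the edgeR fit without a block. At 2 h, IER3 has the highest value for flagellin against PBS (1.26) and the lowest for SB203580 plus flagellin against flagellin (-0.70), where EGR1 is at 0.47.

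EGR2, a regulator of myelination and lymphocyte tolerance, and EGR3, a related factor of muscle spindle and lymphocyte development, were the members with the fewest reads. EGR2 ranged from 2 to 43 counts (0.0619 to 1.44 CPM) and EGR3 from 1 to 32 counts (0.0281 to 1.15 CPM) over the 24 libraries. Group means of EGR2 at 2 h were 0.641 ± 0.195 CPM with PBS, 0.738 ± 0.288 with flagellin and 0.892 ± 0.322 with SB203580 plus flagellin (SD, n = 4). Neither gene was called in any treatment comparison in the fit without a block, with standard errors at 2 h of 0.62 for EGR2 and 1.03 for EGR3 in flagellin against PBS.

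IER2, which encodes a nuclear regulator of transcription, and IER5, which encodes a partner of heat shock factor HSF1 and of phosphatase PP2A, had log2 fold changes with flagellin at 2 h of 0.45 (SE 0.29) and 0.51 (SE 0.28). IER5 was at 59.2, 81.2, 39.3 and 43.3 CPM in the PBS group and 97.9, 102, 66.2 and 50.7 CPM in the flagellin group. With SB203580 plus flagellin it was at 80.9, 64.7, 47.3 and 44.7 CPM. IER5 was thus higher with flagellin than with PBS, and lower with the inhibitor than with flagellin, at each replicate number, while the groups overlapped. Both comparisons use the same flagellin libraries, so these 2 orders are not independent. The share of all genes ordered this way was not computed, which also applies to KLF6 and MYC below. The set term fit on all libraries called IER5 in neither comparison (edgeR adjusted p = 0.0786 and 0.427). Without the 5 libraries, a choice made after seeing the data, it called IER5 in both, at 0.62 (adjusted p = 0.00131, with 671 genes called) and -0.47 (adjusted p = 0.0201, with 286 genes called). IER2 ranged from 18.4 to 54.8 CPM over all libraries, and its inhibitor difference at 2 h was -0.11 (SE 0.29).

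KLF6, a widely expressed factor of wound and stress responses, was at 94.7, 83.7, 118 and 111 CPM with PBS at 2 h. It was at 115, 122, 165 and 139 CPM with flagellin, and at 95.9, 102, 121 and 115 CPM with SB203580 plus flagellin. All 4 numbers were higher with flagellin than with PBS and lower with the inhibitor than with flagellin, but the groups overlapped. The log2 fold changes of KLF6 were 0.41 (SE 0.24) and -0.32 (SE 0.24), and neither passed the test.

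MYC was at 31.8, 37.1, 12.6 and 13.7 CPM with PBS at 2 h, at 43.7, 42.1, 28.5 and 26.4 CPM with flagellin, and at 29.7, 22.5, 25.1 and 19.4 CPM with SB203580 plus flagellin. It too was higher with flagellin at each number (log2 fold change 0.56, SE 0.39) and lower with the inhibitor than with flagellin at each number (-0.54, SE 0.39), and neither difference passed the test. In the PBS group the libraries of numbers 3 and 4 were well below those of numbers 1 and 2.

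KLF2, a factor best known from endothelium and lymphocytes, stayed between 1.44 and 6.49 CPM, and its log2 fold change with flagellin at 2 h was 0.26 (SE 0.43). It changed sign, to -0.30, when replicate 2 of the flagellin group was left out.

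KLF4 is a factor of barrier formation and squamous differentiation in surface epithelia. It was the member with the most CPM, and its values are given beside those of the squamous markers. At 2 h it was at 482, 583, 290 and 252 CPM with PBS, 499, 587, 378 and 289 CPM with flagellin, and 545, 321, 195 and 188 CPM with SB203580 plus flagellin. Its log2 fold change with flagellin was 0.13 (SE 0.58), higher than PBS at each replicate number. For the inhibitor against flagellin it was -0.49 (SE 0.58), lower in 3 of 4 replicates. Set term fitting without the 5 libraries low in club and secretory markers gave -0.78 for the inhibitor difference (edgeR adjusted p = 0.0028), where 286 genes were called. The library that went the other way, replicate 1 of the inhibitor group, was 1 of those 5. The summed CPM of the squamous markers was 5473 to 10884 in those 5, and at most 6634 in any other library. The value of -0.78 thus depends on leaving out libraries high in these markers, a choice made after seeing the data.

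At 24 h KLF4 was at 245, 251, 141 and 180 CPM with PBS, 241, 1004, 122 and 138 CPM with flagellin, and 577, 259, 111 and 149 CPM with SB203580 plus flagellin. The fitted flagellin difference of 0.88 (SE 0.59) rested on replicate 2 of the flagellin group: without that library it was -0.29. The summed CPM of the 5 squamous markers in the same 24 h libraries was 1959, 2355, 2157 and 1635 with PBS, 1945, 10884, 1739 and 1894 with flagellin, and 7099, 5473, 2284 and 1870 with the inhibitor. At 2 h the sums were 5012, 9250, 2117 and 1910 with PBS, 5856, 6634, 2006 and 1931 with flagellin, and 10850, 3567, 1709 and 2036 with the inhibitor. The 3 libraries with the highest KLF4 at 24 h were thus the 3 with the highest marker sums, although replicate 2 of the inhibitor group, at 259 CPM of KLF4, stood close to the PBS libraries. In replicates 3 and 4 KLF4 ranged from 111 to 378 CPM while the marker sum stayed between 1635 and 2284 CPM. KRT4 weighs most in that sum, with a median of 1990 CPM over the 24 libraries. The medians of IVL, TGM1, CNFN and KRT10 were 75.5, 60.5, 58.5 and 7.44 CPM. The mean log2 CPM of the 5 markers, which weights them equally, ranged from 5.23 to 6.10 in replicates 3 and 4. The part of squamous cells in the KLF4 values was not tested.

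**Figure D3:**
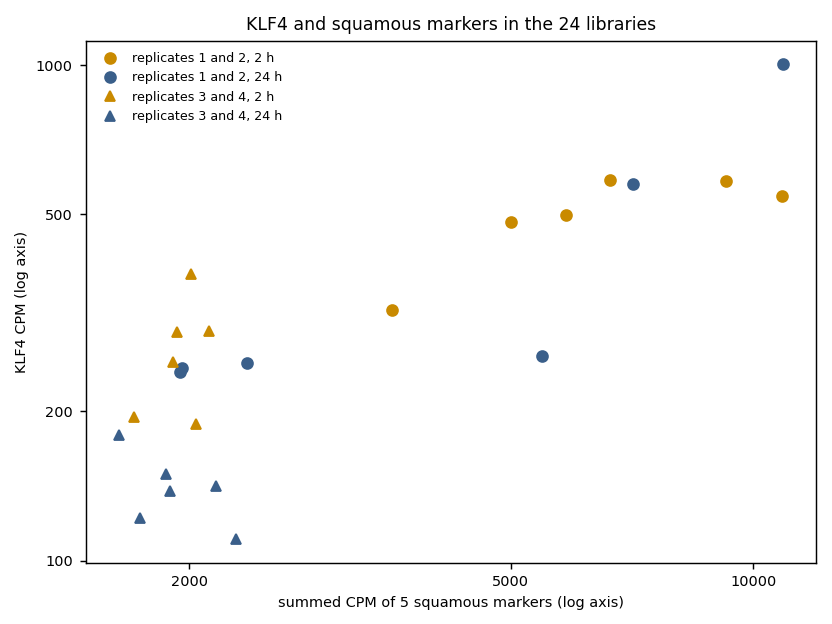
KLF4 level (CPM, log axis) against the summed CPM of 5 squamous markers (log axis) in each of the 24 libraries; circles are replicates 1 and 2, triangles replicates 3 and 4, colours the time. All triangles lie between 1635 and 2284 on the marker axis, and the library with the most KLF4 (1004 CPM) also has the highest marker sum (10884 CPM). KRT4, with a median of 1990 CPM, weighs most in the sum.

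At 24 h none of the treatment comparisons called a member. This held for flagellin against PBS (0% of all genes called), inhibitor plus flagellin against flagellin (0%) and inhibitor plus flagellin against PBS (0.00706%), all by edgeR without a block. At an unadjusted p under 0.05, 0 of 10 members passed in each of these comparisons, beside 0.79%, 2.86% and 4.25% of all genes. DESeq2 called 0 members as well. IER3 at 24 h was at 122, 121, 60.3 and 76.7 CPM with PBS, 150, 177, 72.9 and 69.6 CPM with flagellin, and 182, 113, 70.8 and 56.7 CPM with the inhibitor. These groups overlapped throughout, and numbers 1 and 2 were above numbers 3 and 4 in each. The 24 h log2 fold change of IER3 with flagellin was 0.30 (95% interval -0.39 to 0.99), against 1.26 at 2 h. The difference between these times, tested as an interaction, was -0.95 (SE 0.46, unadjusted p = 0.0528, edgeR adjusted p = 1.00). It was -1.02 in the set term fit (adjusted p = 0.071) and -0.998 in that fit without the 5 libraries (adjusted p = 0.0325, with 84 genes called).

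For inhibitor plus flagellin against flagellin at 2 h, 0 of 10 members were called, beside 0.00706% of all genes. At an unadjusted p under 0.05 there was 1 member, IER3, beside 2.27% of all genes, and DESeq2 called 0. The log2 fold changes of the members split into 6 below and 4 above 0 with a median of -0.21, while the median over all genes was 0.01. Those above 0 were the 3 EGR genes and KLF2 (0.01).

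Between 2 h and 24 h, IER3 was the only member called in the fit without a block. With flagellin its log2 fold change was -1.73 (SE 0.34, edgeR adjusted p = 0.00316, lower in 4 of 4 replicates without overlap). With SB203580 plus flagellin it was -1.18 (SE 0.33, adjusted p = 0.0355), again without overlap. This was 1 of 10 members with flagellin, where 7.9% of all genes were called (3.68% lower), and 1 of 10 with the inhibitor, where 6.88% were called (3.18% lower), so the count of members is near the share over all genes. With PBS, where 10.2% of genes were called (4.88% lower), 0 of 10 members were called and IER3 had a log2 fold change of -0.77 (adjusted p = 0.148, lower in 4 of 4 replicates without overlap). It was called in PBS with the replicate block (-0.89, adjusted p = 0.0259, with 22.5% of genes called) and in the set term fit (-0.83, adjusted p = 0.000636, with 33.2% of genes called). The groups did not overlap for 2 members with PBS, IER3 and KLF4, both lower (8.24% of all genes), and for IER3 alone with flagellin (7.12%) and with the inhibitor (5.88%).

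The IER3 call with SB203580 plus flagellin was lost when any of 7 of its 8 libraries was left out (edgeR adjusted p 0.051 to 0.101) and when only its 2 groups were fitted (0.142). The call with flagellin was kept without each library (0.00235 to 0.0145). Within replicates 1 and 2 alone the IER3 value with the inhibitor was -0.78 (adjusted p = 0.0482), and within replicates 3 and 4 alone -1.82 (adjusted p = 2.75e-05).

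The change from 2 h to 24 h was compared between the replicate sets. The test of the difference, averaged over the 3 treatments in a fit with the set at each time and added after the data had been seen, called 4 of 10 members, while 35% of all genes were called, so the count is near the share over all genes. EGR1 differed by -0.90 on the log2 scale (replicates 3 and 4 minus replicates 1 and 2, SE 0.22, edgeR adjusted p = 0.00318), IER3 by -1.08 (SE 0.18, adjusted p = 0.00015) and KLF6 by -1.01 (SE 0.15, adjusted p = 3.08e-05). EGR2 differed by -2.05 (SE 0.47, adjusted p = 0.0021) at 2 to 43 counts per library. Within replicates 3 and 4 alone EGR2 fell with the inhibitor (-2.28, adjusted p = 0.0128) and was at -1.75 with PBS (0.0543) and -1.52 with flagellin (0.0556).

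EGR1 in the PBS group went from 47.1 and 47.9 CPM at 2 h to 109 and 93.4 CPM at 24 h in replicates 1 and 2, and from 53.0 and 37.1 CPM to 33.8 and 42.2 CPM in replicates 3 and 4. Within replicates 1 and 2 alone the log2 fold change was 1.11 (edgeR adjusted p = 0.03), and within replicates 3 and 4 alone it was -0.23 (adjusted p = 0.519). The pooled value of 0.59 (SE 0.35) therefore describes neither set. With flagellin and with the inhibitor, EGR1 at 24 h was at 71.2 to 111 CPM in replicates 1 and 2 and at 40.4 to 55.9 CPM in replicates 3 and 4. The sets did not overlap at 24 h for EGR1, EGR2, IER2, IER3, KLF4 and KLF6, all higher in replicates 1 and 2, and at 2 h only for EGR3. Over all tested genes, 17.1% were higher in replicates 1 and 2 without overlap at 24 h and 13.1% at 2 h.

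KLF6 at 24 h was at 93.7, 95.5, 52.6 and 87.4 CPM with PBS, 89.8, 131, 66.3 and 63.1 CPM with flagellin, and 108, 98.3, 56.7 and 56.1 CPM with the inhibitor. Within replicates 3 and 4 it fell in each treatment, with log2 fold changes of -0.70 with PBS, -1.23 with flagellin and -1.08 with SB203580 plus flagellin (edgeR adjusted p = 0.0188, 0.000949 and 0.00244). In these fits 3478, 3860 and 3440 genes were called. In replicates 1 and 2 its log2 fold change was 0.10 with PBS, -0.11 with flagellin and 0.07 with the inhibitor, and none passed the test. Pooled, the flagellin value was -0.63 (adjusted p = 0.125), and without replicate 2 of the flagellin group at 24 h it was -0.87 (adjusted p = 0.0299). It was called in the set term fit at -0.67 (adjusted p = 0.00068), where 28.9% of genes were called. With the inhibitor the set term fit gave -0.50 (adjusted p = 0.00671), with 27.1% of genes called. KLF4 in replicates 3 and 4 fell too, with log2 fold changes of -0.75, -1.36 and -0.58 (edgeR adjusted p = 0.0102, 0.000307 and 0.0296).

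**Figure D4:**
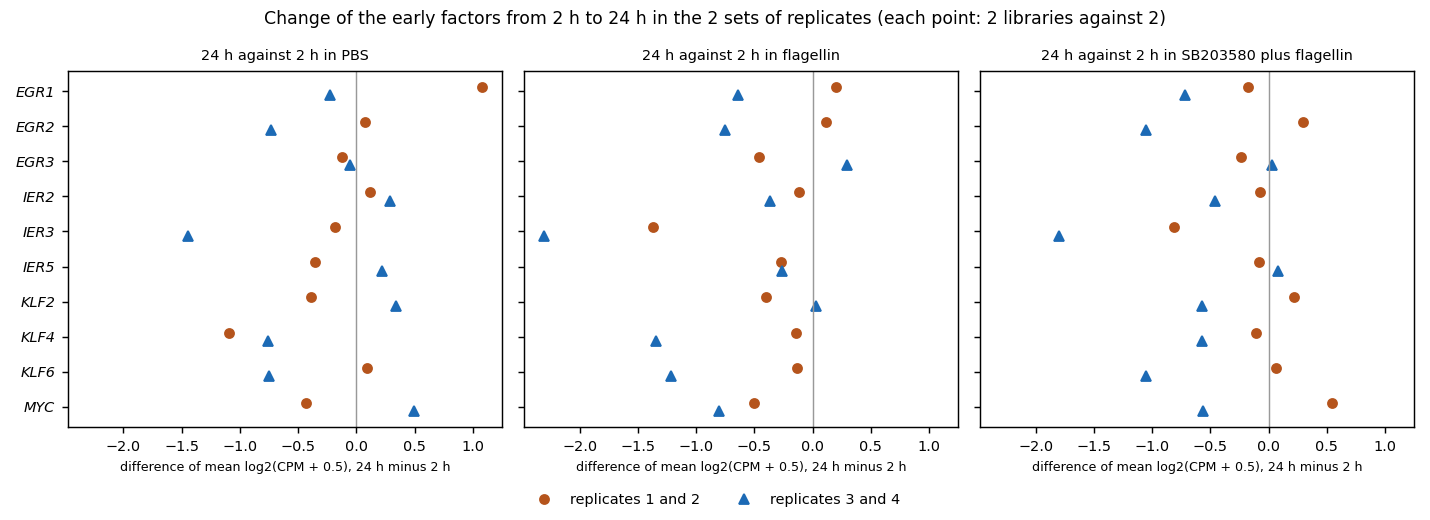
Difference of mean log2(CPM + 0.5) between 24 h and 2 h for each gene in PBS, flagellin and SB203580 plus flagellin; each point sets 2 libraries against 2, with circles for replicates 1 and 2 and triangles for replicates 3 and 4. IER3 and KLF4 are below 0 in both sets of every treatment. EGR1, EGR2, IER3 and KLF6 lie further left in replicates 3 and 4 than in replicates 1 and 2 in all 3 panels.

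MYC at 24 h was at 25.5, 25.3, 12.6 and 27.5 CPM with PBS, 25.0, 36.3, 17.1 and 13.96 CPM with flagellin, and 39.7, 36.4, 13.1 and 16.6 CPM with the inhibitor. Its log2 fold change from 2 h to 24 h was -0.61 (SE 0.39) with flagellin, lower in 4 of 4 replicates, and did not pass the test. In the set term fit without the 5 libraries it was -0.83 (edgeR adjusted p = 0.0202), where 5291 genes were called.

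Other immediate early genes formed a list of 32 symbols, of which 29 were tested. With flagellin at 2 h, 1 of 29 rose, NFKBIA, the inhibitor of NF-kappaB (log2 fold change 2.89, edgeR adjusted p = 0.0285). Without a block, 0.296% of all tested genes rose there. The median log2 fold change of the list was 0.32, beside 0.43 for the 10 members and -0.003 over all genes. From 2 h to 24 h, 9 of 29 fell with PBS, 10 with flagellin and 5 with SB203580 plus flagellin, and 0 rose in the fit without a block, where 4.88%, 3.68% and 3.18% of all genes fell. In the set term fit 13, 20 and 10 fell, where 17.4%, 14.4% and 13.5% of all genes fell. With flagellin 1 rose in that fit, beside 14.5% of all genes. The log2 fold changes of ATF3, a stress-induced repressor, were -1.29, -1.45 and -1.27 in these treatments. The orphan nuclear receptor genes fell as well, NR4A1 with -2.06, -2.86 and -2.32 and NR4A3 with -4.23, -4.96 and -3.85. At most 4 called genes per treatment are named, by smallest p, so a gene named for 1 treatment may have fallen in others too. Those were FOSL2 with PBS (-0.77), FOSB, its relative, with flagellin (-3.30) and GADD45B, a stress sensor, with the inhibitor (-0.74).

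For the inhibitor against flagellin at 2 h, the 29 early genes had a median of -0.47 on the log2 scale, against 0.01 over all genes, and 0 were called without a block. In the set term fit, where 0.374% of all genes were called, 8 of 29 were called, all lower. They include FOS, at -1.05, JUNB, at -0.91, and ZFP36, at -1.11, which were named after their values had been seen. EGR1 (0.46, adjusted p = 0.537 in that fit by edgeR) was on the other side of 0 from these 3.

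Lists of partners and relatives of the members were counted in the same fit without a block. Of 8 tested EGR partners and family genes, 0 were called in a treatment comparison, and NAB1, a corepressor that binds EGR proteins, fell between 2 h and 24 h with flagellin (log2 fold change -0.47). Of 16 tested other KLF and SP factors, 3 fell between 2 h and 24 h with PBS (KLF7 at -0.62, KLF12 at -0.89 and SP3 at -0.29) and 1 with flagellin (KLF7 at -0.69). Over all tested genes, 4.88% fell with PBS and 3.68% with flagellin. The set term fit also called SP3 lower than PBS at 2 h with flagellin (-0.33) and with the inhibitor (-0.33). In these 2 comparisons it called 0.96% and 0.981% of all genes lower. Among 5 tested IER relatives, the cell cycle regulator gene SERTAD3 was lower with SB203580 plus flagellin than with PBS at 2 h (-0.58, edgeR adjusted p = 0.0246). There 0.0494% of all genes were called lower. SERTAD4 fell with time in PBS (-0.71). In the set term fit SERTAD2 was higher than PBS at 2 h with flagellin (0.58) and with the inhibitor (0.51), where 1.28% and 1% of all genes were higher. SERTAD3 was also lower with the inhibitor than with flagellin (-0.56), beside 0.261% of all genes. Of 25 MAP kinase pathway genes, MAPK3, which encodes ERK1, rose between 2 h and 24 h by 0.47 with PBS and 0.33 with flagellin. Over all tested genes, 5.28% rose with PBS and 4.23% with flagellin.

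Among 11 tested genes of the MYC network, MNT, a repressor that competes with MYC for MAX, fell between 2 h and 24 h, with log2 fold changes of -0.64 with PBS, -0.95 with flagellin and -0.73 with the inhibitor. MXI1, another MAX-binding repressor, rose by 1.02, 1.16 and 1.07, and MLXIPL, a glucose-responsive factor, rose by 1.28 with PBS and 1.47 with the inhibitor. Of 23 tested MYC target genes, 7 fell and 1 rose with PBS, and 3 fell and 1 rose in each of the other treatments, without a block. Over all genes in that fit, 4.88%, 3.68% and 3.18% fell and 5.28%, 4.23% and 3.7% rose with PBS, flagellin and the inhibitor. In the set term fit 13, 12 and 13 fell with PBS, flagellin and the inhibitor, and 2 rose in each. There 17.4%, 14.4% and 13.5% of all genes fell, and 15.8%, 14.5% and 13.6% rose. The nucleolar genes NCL, NOP56 and NOLC1 fell with PBS (-0.47, -0.63 and -0.52), and LDHA, for lactate dehydrogenase, rose by 0.91. MYC itself had a log2 fold change of -0.07 (SE 0.39) with PBS.

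The genes most alike to each member were sought by Pearson correlation of log2 CPM over the 24 libraries, after the mean of each replicate number had been removed, among 11846 genes with a symbol. These values describe libraries that share treatments and times, and each is the highest among many genes. The set difference in the change from 2 h to 24 h, called for 35% of all genes, was not removed. EGR3 had only 1 to 32 counts per library. IER3 was most like TMCC3 (r = 0.968) and ALAS1 (0.935), KLF6 most like FOSL1 (0.941) and LMNA (0.931), and KLF4 most like AVPI1 (0.92) and NDEL1 (0.918). EGR2 was most like SF3B3 (0.864) and NSUN2 (0.86), and IER5 most like USP2 and LYRM4 (both 0.84). Lower values were found for MYC with NPC1 (0.796) and MCL1 (0.793), EGR3 with NFIB (0.769) and PDK3 (0.759), EGR1 with VPS37C (0.757) and CDON (0.735), IER2 with SELENOO (0.754) and NUDT1 (0.735), and KLF2 with CPE (0.699) and NGEF (0.679). Among the members, IER3 and KLF6 were the most alike pair (0.874), followed by EGR2 and KLF6 (0.736), KLF4 and KLF6 (0.693) and EGR1 and EGR2 (0.692).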

How the data were processed

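RNA from 24 libraries (6 groups of 4) was analysed from 1 table of raw read counts per gene, deposited by the authors with each gene's coordinates and exon length (a value given in bases). Per the submitters' processing notes, STAR 2.4.0a and Subread 1.4.6-p1 with featureCounts were used, and the notes name the mouse build GRCm38. The labels and notes name neither a pig build nor whether counting used strand, so antisense and overlapping reads cannot be told apart. Of 31868 features, 5988 were not pig genes and were left out. Symbols came from a table of Ensembl identifiers.

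Genes passing filterByExpr (minimum count 10) were fitted in edgeR 4.0.16 (R 4.3.3, limma 3.58.1) with TMM scaling, 1 term per group over all 24 libraries, quasi-likelihood tests and Benjamini-Hochberg adjustment over 14172 genes for 11 comparisons, with calls at 0.05. Scripts were tested on simulated data. No 2 libraries of a group agreed within sampling noise (chi-square per gene 10.3 to 393 over 36 pairs). Alternatives were a replicate block, a term for the replicate set at each time, each set alone, only the groups compared, DESeq2 1.42.0, RLE scaling, no filter and leaving out each library. Fits without 5 libraries were added after seeing the data.

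Replicate numbers were taken to pair libraries in the replicate block and in counts by replicate number, but not in the main fit. This was done because deviations of same-numbered libraries from their group means correlated at 0.228 to 0.851 in all 60 pairs. The same held for numbers of 1 set (median 0.601, against 0.619), so the number may stand for the set, and 14 of 24 libraries correlated best with their own number. Members and gene lists were chosen with earlier results of these data known. Named genes were all members, the 2 genes most alike to each, up to 4 called genes per list and comparison by smallest p, and TLR5 and CXCL8.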

Additional observations from a re-analysis of the deposited data

Results flagged for a closer look

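In 5 of 60 gene and group combinations, 1 library stood far from the other 3, by a gap over Dixon's 95% critical value for 4 samples. Chance alone flags about 1 in 20 such combinations. KLF4 in replicate 2 of the flagellin group at 24 h was at 1004 CPM, where the others were at 122 to 241 CPM. That library also had the highest squamous marker sum (10884 CPM). EGR3 in replicate 1 of the PBS group at 2 h was at 0.818 CPM (others 0.0599 to 0.188), and in replicate 1 of the SB203580 plus flagellin group at 24 h at 1.15 CPM (others 0.0808 to 0.194). KLF2 in that same inhibitor library was at 6.03 CPM (others 1.64 to 2.37). MYC in replicate 3 of the PBS group at 24 h was at 12.6 CPM, below the other 3 libraries at 25.3 to 27.5 CPM.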

How the results depend on the processing

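Of 2121 member differences recomputed under an alternative, 1798 kept their direction and side of the threshold, 266 changed sign where no call was made and the difference was within 1 SE, 42 gained a call, 8 lost it and 7 reversed. The 8 lost calls were all of IER3 from 2 h to 24 h with SB203580 plus flagellin. KLF4 with flagellin at 24 h (0.88) reversed to -0.29 without flagellin 24 h replicate 2, within a range of -0.29 to 1.17 over the libraries left out. It was -0.30 in replicates 3 and 4 alone, -0.29 without the 5 libraries low in club and secretory markers and -0.19 in the set term fit without them. KLF6 over time reversed with only replicates 1 and 2 fitted, to 0.10 with PBS and 0.068 with the inhibitor. EGR1 over time in PBS reversed to -0.23 with only replicates 3 and 4 fitted. The cause was not tested.

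The number of the 10 members called for flagellin against PBS at 2 h was 0 without a block and 1 with the replicate block, the set term, only the groups compared, DESeq2 and either set of replicates alone. For time in PBS it was 0, but 1 with the replicate block and the set term (IER3, lower), 1 with only replicates 1 and 2 (EGR1, higher), and 3 with only replicates 3 and 4. The replicate block changed no other call of a member. For time with flagellin it was 1, but 2 with the set term, 3 in replicates 3 and 4 alone and 3 without the 5 libraries. For time with the inhibitor it was 1, but 2 with the set term, 0 with only the groups compared, 5 in replicates 3 and 4 alone and 2 without the 5 libraries. Without the 5 libraries the inhibitor group at 24 h holds only replicates 3 and 4, so time and replicate set are mixed there. For inhibitor plus flagellin against PBS at 2 h it was 0, but 1 with the set term. The set term without the 5 libraries, added after seeing the data, gave 2 for flagellin against PBS, 3 for the inhibitor against flagellin and 2 for the inhibitor against PBS at 2 h, 3, 5 and 3 for time in PBS, flagellin and inhibitor, and 1 for the interaction of flagellin with time. Over all genes that fit called 671, 286 and 573 at 2 h, 5492, 5291 and 3525 for time, and 84 for the interaction. The fit of replicates 3 and 4 alone called 3478, 3860 and 3440 genes for time in PBS, flagellin and inhibitor. Leaving out each library gave 1 to 2 for time with flagellin, 0 to 1 for time with the inhibitor and 0 in every other comparison.

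Genes called overall moved more: for flagellin against PBS at 2 h there were 46 without a block, 151 with the replicate block, 318 with the set term, 24 with only the groups compared and 103 with DESeq2. For inhibitor plus flagellin against PBS at 2 h there were 26, 114 with the block and 281 with the set term, and against flagellin 1, 5 and 53. For time in PBS there were 1440, 3183 with the block and 4700 with the set term. With 1 to 32 counts of EGR3 and 2 to 43 of EGR2 per library, depth limits what can be said of these genes.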
